A study of Mus musculus with 17 samples.

Results

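The adrenergic receptor genes of skeletal muscle and the kinases that phosphorylate these receptors were followed by RNA sequencing in the extensor digitorum longus (EDL), a fast muscle of the hindlimb. The set was fixed by name: the alpha-1 receptor genes Adra1a, Adra1b and Adra1d, the alpha-2 receptor genes Adra2a and Adra2b, the beta receptor genes Adrb1 and Adrb3, and the receptor kinase genes Adrbk1 (also called Grk2) and Grk5. All 9 were found, each as 1 row of the 36172 gene rows in the deposited table; other genes of the family were not analysed here. Of the 17 mice, 7 had received a vector carrying Hand2 and 10 an empty vector. Hand2 encodes a basic helix-loop-helix transcription factor that sympathetic neurons need to form and to keep their noradrenergic identity, and the title of the study ties the vector to sympathetic neurons and muscle loss with age. The Hand2 group held 3 males (1 of 22 months, 2 of 23 months) and 4 females (3 of 22 months, 1 of 23 months). The empty-vector group held 5 males (1 of 22 months, 4 of 23 months) and 5 females (2 of 22 months, 3 of 23 months). Every animal was aged and every animal carried a vector; a young or an uninjected group was not analysed here. The labels name neither the strain nor the promoter, dose or route of the vector.

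Noradrenaline released by sympathetic nerve endings acts on muscle fibres, on the smooth muscle of vessels and on fat cells through receptors that differ in the G protein they use. Beta receptors couple to Gs and raise cyclic AMP, which in muscle promotes glycogen breakdown and growth; alpha-1 receptors couple to Gq and, through phospholipase C and inositol trisphosphate, release calcium, above all in vascular smooth muscle; alpha-2 receptors couple to Gi, lower cyclic AMP and, on nerve endings, restrain further release. Receptor kinases phosphorylate receptors that have bound agonist, so that arrestins uncouple them from the G protein.

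Reference promoters were available for 5 of the 9 genes, Adra2a, Adra2b, Adra1b, Adrb1 and Grk5; Adra1a, Adra1d, Adrb3 and Adrbk1 had no entry. They span 250 bases before to 50 bases after the annotated start and come from RefSeq on GRCm38.p6. Basic helix-loop-helix factors bind E-boxes, CANNTG, and CREB, the factor that carries cyclic AMP signals to genes, binds the sequence TGACGTCA or its core TGACG. Both strands were searched for these motifs. Of the 32851 mouse promoters of this length, 72.31% held CANNTG, 17.15% held CATCTG (1 form of CANNTG), 20.81% held TGACG and 1.79% held TGACGTCA. Of the 5 genes, CANNTG was found in the window of Adra2a alone and TGACG in those of Adra2a and Adrb1. CATCTG and TGACGTCA were found in none. Adra1b had windows at separate starts, each without a match. The window of Adra2a, with CANNTG and TGACG, and that of Grk5, with neither, are shown. Capitals mark a motif match (CACGTG for the E-box and TGACG after it), and a match is not a binding site.
Adra2a, chr19:54045009-54045308, + strand: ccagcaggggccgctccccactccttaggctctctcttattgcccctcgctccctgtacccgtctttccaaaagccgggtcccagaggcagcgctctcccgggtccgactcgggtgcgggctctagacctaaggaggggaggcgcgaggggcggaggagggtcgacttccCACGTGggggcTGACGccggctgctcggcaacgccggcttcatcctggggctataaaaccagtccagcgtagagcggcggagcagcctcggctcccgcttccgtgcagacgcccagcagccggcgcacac
Grk5, chr19:60889499-60889798, + strand: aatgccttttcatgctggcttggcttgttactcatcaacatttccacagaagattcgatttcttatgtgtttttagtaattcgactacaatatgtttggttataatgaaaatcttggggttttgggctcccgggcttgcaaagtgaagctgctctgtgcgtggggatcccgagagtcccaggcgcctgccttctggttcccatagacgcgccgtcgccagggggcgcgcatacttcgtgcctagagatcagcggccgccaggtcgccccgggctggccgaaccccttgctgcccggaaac

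The libraries held 19181208 to 30942818 estimated counts (median 26091234), so 3 counts, the number that an observed 0 still allows, correspond to 0.097 to 0.156 CPM (counts scaled to a library of equal size). The Hand2 gene itself lay at 1.02 to 26.3 CPM in the Hand2 group and at 0.071 to 0.94 CPM in the empty-vector group, with no overlap, as in 0.0215% of all genes tested (log2 fold change 3.63 ± 0.57 SE, edgeR adjusted p = 0.124, not called). DESeq2 called it (3.52, adjusted p = 8.48e-06), as did edgeR without Hand2 replicate 6 (adjusted p = 0.0081), and over all alternatives the adjusted p ran from 8.48e-06 to 0.926. The fast-muscle label held: Myh4, the fastest myosin heavy chain, ranged from 22640 to 31790 CPM in the Hand2 group and from 19000 to 29910 CPM in the empty-vector group. Empty-vector replicates 3, 4 and 5, which are the 3 empty-vector females of 23 months, stood apart: 5 immediate-early genes (Fos, Fosb, Junb, Atf3, Ier2) summed to 932 CPM in replicate 3 and 282 CPM in replicate 4, and 5 interferon-induced genes (Ifit1, Ifit3, Isg15, Oasl2, Rsad2) summed to 261 CPM in replicate 5. The other 14 animals reached at most 124 and 76.3 CPM in these sums. Calls between sexes are given with and without them.

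Adrbk1 stood far above the other genes, and every receptor was near or below 1 CPM per kilobase of exon. Per kilobase, Adrbk1 RNA averaged 32.9 CPM in the Hand2 group and 32.6 CPM in the empty-vector group. In the Hand2 group the mean levels per kilobase that followed were 0.751 CPM for Grk5, 0.658 for Adra1d, 0.598 for Adra2b and 0.575 for Adra2a, then 0.172 for Adra1a, 0.117 for Adra1b, 0.0886 for Adrb3 and 0.0643 for Adrb1. In the empty-vector group they were 0.936 CPM for Adra1d, 0.913 for Grk5, 0.514 for Adra2a and 0.506 for Adra2b, then 0.184 for Adra1a, 0.152 for Adra1b, 0.115 for Adrb3 and 0.0637 for Adrb1. In both groups the range of Adrbk1 lay clear of the next gene, and in the Hand2 group that of Adra2a also lay clear of Adra1a; every other pair of neighbours in these orders overlapped in range. On GRCm38, 4 of the genes lie on chromosome 19, Adrbk1 at 4286001 to 4305955 (minus strand) and Adra2a at 54045182 to 54048982, Adrb1 at 56722372 to 56724862 and Grk5 at 60889749 to 61092555 (plus strand). Adra2b lies on chromosome 2 at 127363286 to 127367221 (plus strand), Adra1b on chromosome 11 at 43774606 to 43836332 (minus strand) and Adra1a on chromosome 14 at 66635251 to 66733462 (plus strand). RNA of a whole muscle mixes fibres, vessels, nerve, fat and connective tissue, so fewer cells of a type and less RNA per cell cannot be told apart.

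**Figure D1:**
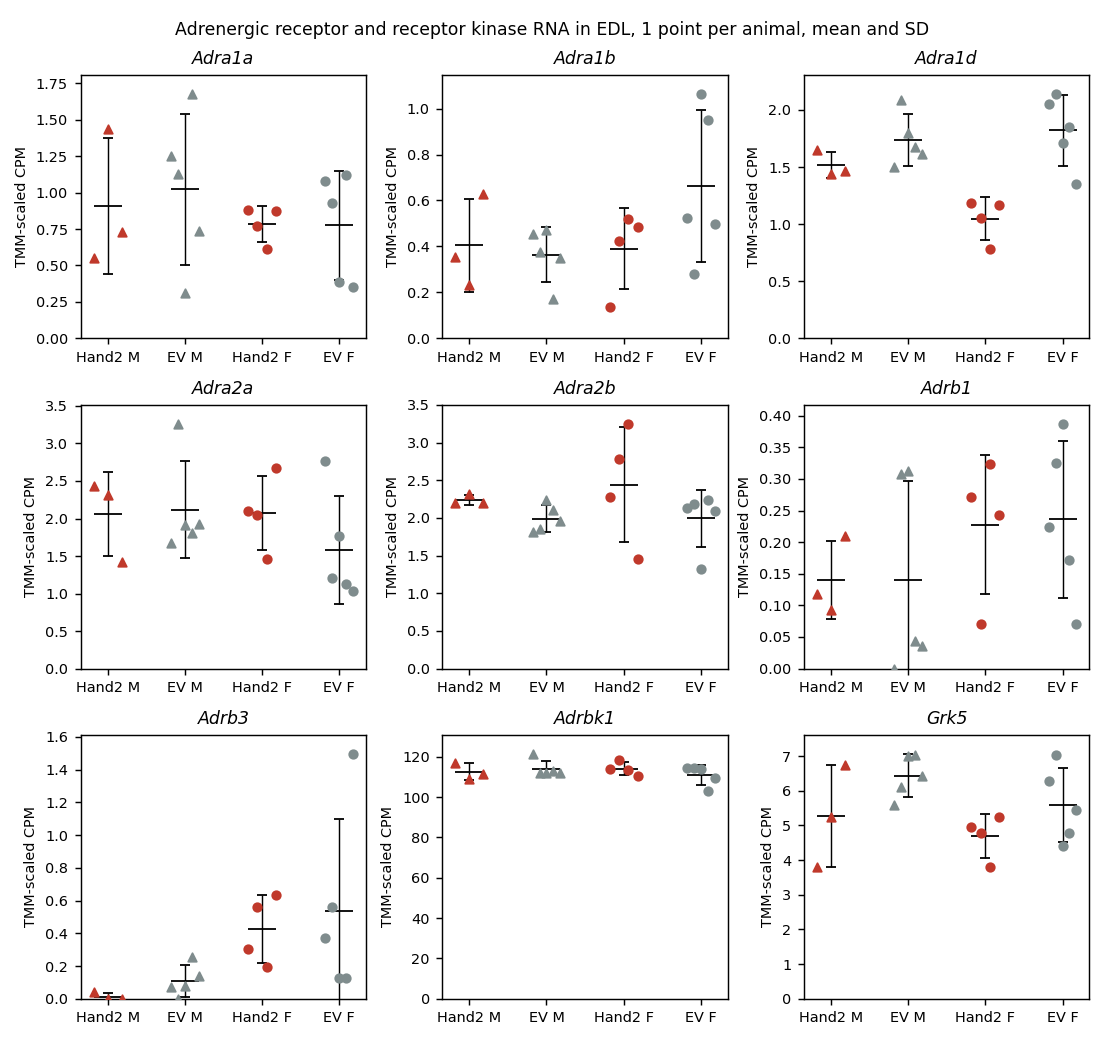
Level of each gene in TMM-scaled CPM, 1 point per animal, with the mean and SD (bars cut at 0); Hand2 vector in red and empty vector (EV) in grey, males (M, triangles) left and females (F, circles) right. Adra1d in Hand2 females (0.779 to 1.19 CPM) lies below empty-vector females (1.35 to 2.14 CPM), and Adrb3 is at or near 0 in most males.

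The comparison of vectors asked whether the Hand2 vector left a mark on adrenergic receptor RNA in aged muscle. Of the 9 genes, 8 passed the filter on low counts and were tested; Adrb1 did not pass. None of the 8 changed at an adjusted p below 0.05 in edgeR's quasi-likelihood test, and none did in DESeq2 or limma-voom; over all 13965 genes tested, edgeR called 0 (0.0%) and DESeq2 called 1, Hand2 itself. At an unadjusted p below 0.05 edgeR had 2 of the 8, Adra1d and Grk5, both lower with Hand2, against 705 of the 13965 genes (5.05%, with 2.56% lower). The members were chosen with earlier results of these data known, so this count is descriptive. The log2 fold change was positive in 3 and negative in 5 of the 8, with a median of -0.17 against -0.0041 over all genes.

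Adra1d, the alpha-1 receptor of large arteries, gave the lowest p of the set. The gene lies on chromosome 2 at 131545357 to 131562285, minus strand (GRCm38). Its RNA was 0.779 to 1.65 CPM (median 1.19) in the Hand2 group and 1.35 to 2.14 CPM (median 1.75) in the empty-vector group. The groups overlapped, but all 7 Hand2 animals lay below the empty-vector median and 4 of the 7 lay below every empty-vector animal. The means were 1.25 ± 0.293 CPM with Hand2 (SD, n = 7) and 1.78 ± 0.262 CPM with the empty vector (SD, n = 10). On the log2 scale the difference was -0.51 ± 0.16 (SE, 95% interval -0.84 to -0.19), and it did not pass (edgeR p = 0.00404, adjusted p = 0.921, and 0.346 to 0.999 over the alternatives). Leaving out 1 animal at a time gave -0.58 to -0.43, and leaving out empty-vector replicates 3, 4 and 5 gave -0.54. Within 1 age, the value was -0.74 ± 0.30 among animals of 22 months and -0.35 ± 0.22 among those of 23 months. Its exons share 147 bases with an antisense gene, Gm14285, that is not a row of the table. No source states that counting used strand, so reads over the shared bases of this pair cannot be told apart.

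The estimated difference in Adra1d was larger in females than in males. The 3 Hand2 males had 1.65, 1.44 and 1.47 CPM, against 1.497, 2.09, 1.80, 1.68 and 1.61 CPM in the 5 empty-vector males. The 4 Hand2 females had 1.19, 1.06, 0.779 and 1.17 CPM, against 2.05, 2.14, 1.71, 1.85 and 1.35 CPM in the 5 empty-vector females. The males overlapped and the females did not; 1.65% of all genes tested had no overlap among females. The log2 fold change was -0.19 ± 0.21 in males (95% interval -0.63 to 0.25) and -0.80 ± 0.20 in females (95% interval -1.21 to -0.38), neither called by edgeR (adjusted p = 1.0 and 0.783). The male minus female difference was 0.61 ± 0.29 (edgeR p = 0.0482, adjusted p = 1.0), so a difference between the sexes did not pass either, and 3.39% of all genes had an unadjusted p this side of 0.05. The unadjusted p of the male minus female difference was not below 0.05 in DESeq2, limma-voom with quality weights, upper-quartile scaling or the fit with no filter. Nor was it in most fits without 1 animal. Without empty-vector replicates 3, 4 and 5 the female value was -1.007 ± 0.24, with 2 empty-vector females left.

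Markers of vascular smooth muscle, the main site of alpha-1 receptors, were read beside Adra1d. Of 8 smooth muscle and mural markers, 7 were tested and none was called between vectors in edgeR; 6 of the 7 log2 fold changes were below 0, with a median of -0.063, and 2 of 7 had an unadjusted p below 0.05, against 5.05% of all genes. Their summed level ran from 301 to 373 CPM in the Hand2 group and from 320 to 371 CPM in the empty-vector group. At 22 months the sums did not overlap, at 301 to 331 CPM with Hand2 and 351 to 366 CPM with the empty vector. Taken singly, 12.7% of all genes tested did not overlap at that age either. At 23 months the sums overlapped, at 341 to 373 and 320 to 371 CPM. Of the 4 Hand2 females, 3 lay below every empty-vector female (348 to 361 CPM). Tagln, an actin-binding protein of smooth muscle, averaged 54.4 ± 5.43 CPM with Hand2 and 60.8 ± 6.73 CPM with the empty vector (SD), and Mylk, the myosin light chain kinase, 52.1 ± 3.39 and 55.8 ± 5.56 CPM. These were the 2 with an unadjusted p below 0.05. Acta2, smooth muscle actin, was listed at 0 in all 17 libraries although other genes of that cell type were abundant. The part of these cells in the Adra1d values was not tested, and the markers were chosen after values were seen.

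Grk5, a receptor kinase of heart and skeletal muscle, was the other gene with an unadjusted p below 0.05. Its RNA was 3.80 to 6.75 CPM (median 4.96) in the Hand2 group and 4.41 to 7.05 CPM (median 6.19) in the empty-vector group. The groups overlapped, with 6 of the 7 Hand2 animals below the empty-vector median. The log2 fold change was -0.27 ± 0.12 (95% interval -0.53 to -0.01, edgeR p = 0.0403, adjusted p = 0.921), which did not pass, and it was alike in size in males (-0.29 ± 0.19) and females (-0.25 ± 0.17), with a difference of -0.043 ± 0.25. The age groups gave unlike values: -0.62 ± 0.16 among animals of 22 months, whose levels were 3.80 to 4.96 CPM with Hand2 and 6.27 to 7.02 CPM with the empty vector, and -0.029 ± 0.14 among those of 23 months, with 5.24 to 6.75 and 4.41 to 7.05 CPM. The vectors did not overlap at 22 months, as in 12.7% of all genes tested, and did at 23 months; this difference between ages was not tested, and neither age passed (edgeR adjusted p = 0.213 and 0.969). Without empty-vector replicates 3, 4 and 5 the value over all animals was -0.38 ± 0.13. The unadjusted p of Grk5 was not below 0.05 with upper-quartile scaling or in limma on the deposited log2 values. In edgeR the same held without any 1 of empty-vector replicates 1, 2, 8, 9 and 10 or Hand2 replicates 2, 3, 4 and 6. At 22 months the summed adipocyte, slow-fibre, fast-fibre, striated muscle, Schwann cell, sympathetic neuron and fibroblast markers overlapped between vectors. The sums of endothelial, smooth muscle and macrophage markers parted at that age, and no share over all genes was computed for sums. Endothelial markers were 298 to 368 CPM with Hand2 and 402 to 484 CPM with the empty vector. Smooth muscle markers parted as given above, and macrophage markers were 103 to 116 CPM with Hand2 and 57.4 to 89.4 CPM with the empty vector. At 23 months these sums overlapped, endothelial markers at 365 to 463 CPM with Hand2 and 309 to 434 CPM with the empty vector, and macrophage markers at 78.6 to 107 and 46.8 to 127 CPM. Their part in the Grk5 values was not tested.

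Adrbk1, the ubiquitous receptor kinase, was the most precisely measured gene of the set. It ranged from 109 to 118 CPM (median 113) in the Hand2 group and from 103 to 121 CPM (median 112) in the empty-vector group, and the groups overlapped almost wholly. The log2 fold change between vectors was 0.013 ± 0.034, with a 95% interval of -0.058 to 0.084, or 0.960-fold to 1.06-fold. Between sexes it was 0.016 ± 0.033, with an interval of -0.055 to 0.086. The coefficient of variation over the 17 animals was 3.58%, against 19.4% for Grk5, 24.2% for Adra1d and 127% for Adrb3. The median counts per library were 3061.5 for Adrbk1, 146 for Grk5, 42.0 for Adra1d and 4.00 for Adrb3.

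The alpha-2 receptors were higher in mean with Hand2, but neither passed. Adra2b ranged from 1.46 to 3.24 CPM (median 2.27) in the Hand2 group and from 1.32 to 2.24 CPM (median 2.10) in the empty-vector group, where 4 of 7 Hand2 animals lay above every empty-vector animal; its log2 fold change was 0.24 ± 0.15 (95% interval -0.07 to 0.56, edgeR adjusted p = 0.921). Adra2a, the autoreceptor of sympathetic endings whose promoter is printed above, ranged from 1.41 to 2.67 CPM (median 2.10) in the Hand2 group and from 1.03 to 3.26 CPM (median 1.79) in the empty-vector group, at 0.19 ± 0.22 (95% interval -0.28 to 0.65). Without empty-vector replicates 3, 4 and 5 the value of Adra2a was -0.0079, so its direction rests on those libraries. Adra2b at 23 months alone gave -0.0018.

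The scarce alpha-1 receptors and Adrb3 had wide intervals between vectors. Adra1a ranged from 0.551 to 1.44 CPM (median 0.774) with Hand2 and from 0.313 to 1.68 CPM (median 1.006) with the empty vector, a log2 fold change of -0.06 ± 0.32 (95% interval -0.74 to 0.61). Adra1b ranged from 0.136 to 0.628 CPM (median 0.422) with Hand2 and from 0.172 to 1.06 CPM (median 0.461) with the empty vector, at -0.40 ± 0.35 (95% interval -1.12 to 0.33). Both pairs of ranges overlapped, and without empty-vector replicates 3, 4 and 5 Adra1b gave 0.037. Adrb3 ranged from 0 to 0.632 CPM (median 0.195) with Hand2 and from 0 to 1.49 CPM (median 0.135) with the empty vector, at -0.67 ± 0.60 (95% interval -1.93 to 0.59). The intervals of Adra1a and Adrb3 hold both a rise and a fall by 1.5-fold, and that of Adra1b a fall of that size. Such changes are therefore not excluded by these data.

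Adrb1, the main beta receptor of the heart, was close to the floor of detection. It had 2 to 10 counts per library in the Hand2 group (34.4 in all) and 0 to 12.1 counts in the empty-vector group (49.7 in all). The mean level was 0.190 ± 0.0973 CPM (SD, n = 7) with Hand2 and 0.188 ± 0.143 CPM (SD, n = 10) with the empty vector, and the ranges overlapped. In a fit with no filter its log2 fold change was -0.04 ± 0.54 between vectors, and with an error that wide large changes in either direction are not excluded.

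**Figure D2:**
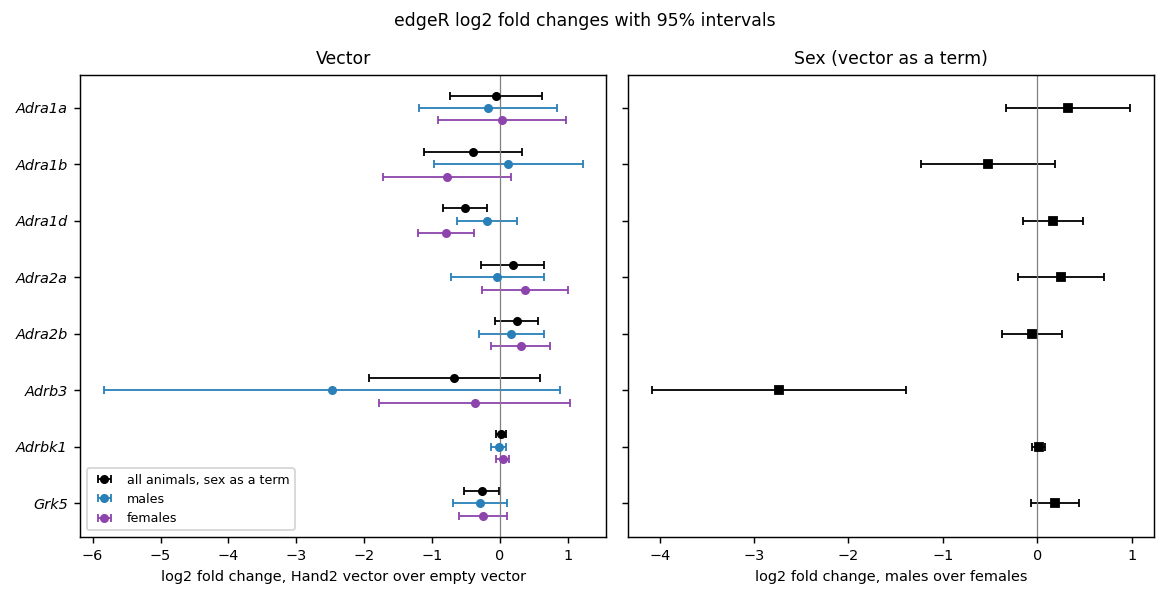
Log2 fold changes from edgeR with 95% intervals for the 8 tested genes: at left Hand2 vector over empty vector in all animals, males and females, at right males over females. The interval of Adra1d over all animals (-0.84 to -0.19) and in females (-1.21 to -0.38) lies below 0, that of Adrbk1 (-0.058 to 0.084) is the narrowest, and that of Adrb3 between sexes runs from -4.08 to -1.39.

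As shares of the summed RNA of the 7 receptors, each taken per kilobase of exon, alpha-1 receptors made up 41.6 ± 6.80% in the Hand2 group and 51.5 ± 5.44% in the empty-vector group, and alpha-2 receptors 51.6 ± 4.57% and 41.2 ± 5.23% (SD, n = 7 and n = 10). In males the alpha-1 share was 48.2 ± 3.33% with Hand2 and 51.2 ± 2.88% with the empty vector; in females it was 36.7 ± 3.004% and 51.9 ± 7.62%. Alpha-1 shares of the 4 Hand2 females, 32.9% to 39.7%, lay below those of the 5 empty-vector females, 40.3% to 60.1%. Beta receptors held 6.75 ± 4.44% and 7.26 ± 6.65%. These shares restate the levels above, in which Adra1d carries the most weight (28.9% of receptor RNA with Hand2 and 37.8% with the empty vector), and they have no test of their own.

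**Figure D3:**
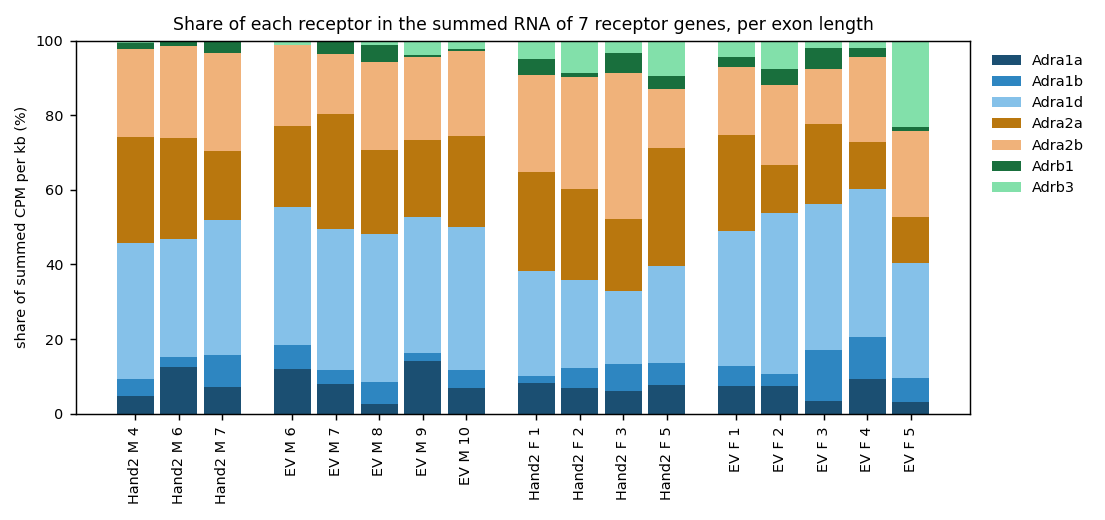
Share of each of 7 receptor genes in their summed CPM per kilobase, in percent, 1 bar per animal (numbers are replicates), Hand2 left of empty vector (EV) within males (M) and females (F). Alpha-1 receptors (blue) take 41.6% on average with Hand2 and 51.5% with the empty vector, and beta receptors (green) take 3.06% in males and 10.6% in females.

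The comparison of sexes set 8 males against 9 females with the vector as a term in the model. It called 786 of 13965 genes in edgeR (5.63%), 380 of them lower in males (2.72%), and 1 of the 8 tested members, Adrb3, which fell in males. The count of called genes was 291 without empty-vector replicates 3, 4 and 5 and 476 to 952 with 1 animal left out; Adrb3 was called in each of these fits. Adrb3, the beta receptor of white and brown fat cells that drives lipolysis in rodents, lies on chromosome 8 at 27225776 to 27229588, minus strand. Its RNA was 0 to 0.258 CPM (median 0.0545) in males and 0.129 to 1.49 CPM (median 0.373) in females, and 3 of the 8 males had no count. The 3 Hand2 males had 0.0393, 0 and 0 CPM and the 5 empty-vector males 0.0696, 0, 0.0783, 0.258 and 0.140 CPM. The 4 Hand2 females had 0.305, 0.563, 0.195 and 0.632 CPM and the 5 empty-vector females 0.373, 0.558, 0.129, 0.129 and 1.49 CPM. The sexes overlapped, with 6 of 8 males below every female and all 8 below the female median.

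The log2 fold change of Adrb3, males over females, was -2.73 ± 0.64 (95% interval -4.08 to -1.39, edgeR adjusted p = 0.0178), with means of 0.0732 ± 0.0893 CPM in males and 0.486 ± 0.423 CPM in females (SD, n = 8 and n = 9). The depth behind it was small: 15.2 estimated counts over all males and 115 over all females, and 6 of the 8 males held fewer than 3 counts. The gene passed the filter through females alone, since 0 males and 5 females reached the 0.383 CPM that the filter asked for, and a fit with no filter gave -2.76 (edgeR adjusted p = 0.0162). Without empty-vector replicate 5, the highest female, it was -2.19 (adjusted p = 0.0492), and without empty-vector replicates 3, 4 and 5 it was -2.73 (adjusted p = 0.0292). The adjusted p ran from 0.000786 to 0.0492 over every alternative that kept the gene; a filter at a mean of 1 CPM dropped it. Its exons share 839 bases with the antisense gene Gm45470, which is not a row of the table. Without knowledge of strand, reads over the shared bases cannot be told apart.

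Fat cell markers moved the same way beside Adrb3. Of 6 adipocyte markers, 4 were called lower in males in edgeR, against 2.72% of all genes tested. They included Cidec, a lipid droplet protein (log2 fold change -1.60, edgeR adjusted p = 0.00576), and Adipoq, the hormone adiponectin (-1.22, adjusted p = 0.0230). The others were Plin1, the lipid droplet coat protein perilipin (-1.29, adjusted p = 0.0240), and Lep, the hormone leptin (-1.73, adjusted p = 0.0382). Cfd, adipsin, was at -0.90 (adjusted p = 0.0946), and Fabp4, a fatty acid carrier also made by endothelium, was at 0.13. In edgeR 0 of the 6 were called without empty-vector replicates 3, 4 and 5, while 5 of 6 kept an unadjusted p below 0.05: the values were -1.41 for Cidec (adjusted p = 0.0893), -1.39 for Adipoq (adjusted p = 0.0572), -1.31 for Plin1 (adjusted p = 0.0898) and -1.58 for Lep (adjusted p = 0.181). With 1 animal left out, Cidec, Adipoq and Plin1 stayed called in all 17 fits, and Lep lost its call in 11 of them, those without any 1 of empty-vector replicates 3, 4, 6, 7 and 8 or Hand2 replicates 1, 2, 3, 4, 6 and 7 (highest edgeR adjusted p = 0.0838). Adipoq was 0.708 to 3.31 CPM in males and 2.58 to 10.2 CPM in females. The summed level of the list, most of it Fabp4, was 181 to 323 CPM in males and 175 to 328 CPM in females, and no marker was at 0 in every animal of a sex. The markers were chosen after values were seen, so their share of calls is descriptive. The part of fat cells in the Adrb3 result was not tested. The 2 genes whose log2 CPM followed Adrb3 most closely over the 17 animals, males and females together and with no test, were Retn, the fat cell hormone resistin (Pearson r = 0.81, Spearman rho = 0.82), and Utp14a, a ribosome assembly factor (0.81 and 0.82).

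The slow-fibre markers of the muscle itself also differed by sex. All 7 were called lower in males in edgeR, against 2.72% of all genes tested, with a median log2 fold change of -2.50. All 7 were also called without empty-vector replicates 3, 4 and 5 (median -2.63, edgeR adjusted p 0.00299 to 0.0435) and in each of the 17 fits without 1 animal. Their summed level was 135 to 326 CPM in males and 282 to 1456 CPM in females. These markers too were chosen after values were seen, and their part in the Adrb3 values was not tested.

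**Figure D4:**
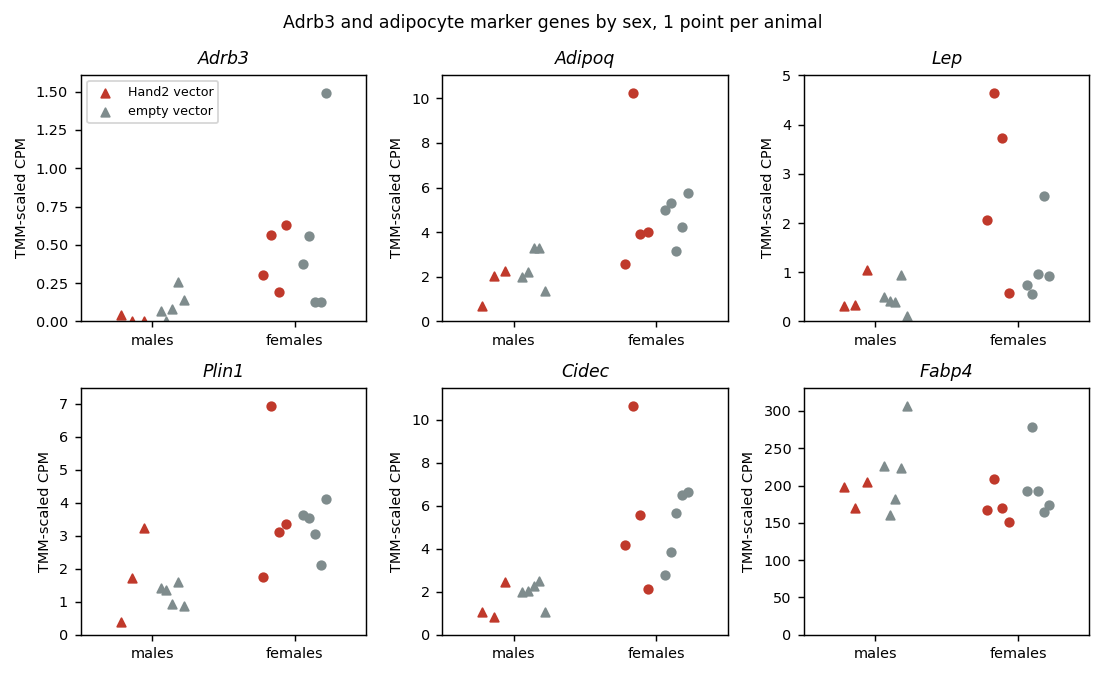
Adrb3 and 5 adipocyte marker genes in TMM-scaled CPM, 1 point per animal, males (triangles) left of females (circles), Hand2 vector in red and empty vector in grey. Adrb3, Adipoq, Lep, Plin1 and Cidec are lower in males by log2 fold change, though the ranges of Adrb3 and Adipoq overlap between sexes. Fabp4 overlaps too and is not lower in males (209 ± 45.7 CPM in males and 189 ± 38.0 CPM in females).

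The other 7 tested genes did not pass between sexes. Their log2 fold changes, males over females, were 0.33 ± 0.31 for Adra1a, -0.52 ± 0.34 for Adra1b, 0.17 ± 0.15 for Adra1d, 0.25 ± 0.22 for Adra2a, -0.05 ± 0.15 for Adra2b, 0.19 ± 0.12 for Grk5 and the value of Adrbk1 given above (edgeR adjusted p 0.378 to 0.873). Adrb1 was 0 to 0.313 CPM in males and 0.0704 to 0.387 CPM in females, with overlap, and at -0.72 ± 0.54 in the fit with no filter (adjusted p = 0.528). Beta receptors together made up 3.06 ± 1.51% of receptor RNA in males and 10.6 ± 5.71% in females (SD, n = 8 and n = 9). Adrb1 alone made up 1.94% in males and 3.31% in females, and Adrb3 1.13% in males and 7.29% in females.

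For the other tested genes, the closest patterns over the 17 animals were found in genes of varied kinds. They were Fam109b (r = 0.75, rho = 0.67) and Trim30e-ps1 (0.74, 0.74) for Adra1a, Dok1 (0.88, 0.86) and Il20rb (0.83, 0.70) for Adra1b, and Ankrd42 (0.79, 0.80) and Shank1 (0.75, 0.41) for Adra1d. For the alpha-2 receptors they were Cdk2ap1 (0.82, 0.74) and Mad2l1 (0.80, 0.81) for Adra2a, and Vav1 (0.77, 0.71) and Agap2 (0.76, 0.69) for Adra2b. For the kinases they were Phf23 (0.82, 0.64) and Med17 (0.80, 0.45) for Adrbk1, and BC004004 (0.89, 0.84) and Ptges3l (0.79, 0.77) for Grk5. Each was picked as the highest of the correlations with all 13965 genes over the same libraries and is given with no test.

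The signalling genes downstream of these receptors, 70 genes in 7 lists of which 66 were tested, held no call between vectors in edgeR. Against 5.05% of all genes tested, 2 of the 66 (3.03%) had an unadjusted edgeR p below 0.05. These were Slc22a3, an extraneuronal transporter of noradrenaline, at 0.944 CPM with Hand2 and 1.66 CPM with the empty vector (log2 fold change -0.82 ± 0.30, adjusted p = 0.921), and Pkig, an inhibitor of protein kinase A (-0.11 ± 0.053, adjusted p = 0.921). In the other lists the lowest p belonged to Grk6, a receptor kinase, at 0.11, Gng5, a G protein gamma subunit, at -0.086, Adcy5, an adenylyl cyclase, at 0.22, Pde8b, a phosphodiesterase of cyclic AMP, at -0.43, and Plcb3, a phospholipase C, at 0.098, all with an edgeR adjusted p of 0.921. Of 7 sympathetic neuron markers 1 passed the filter, and none was called; Slc6a2, the noradrenaline transporter, was 0.908 to 6.13 CPM with Hand2 and 1.56 to 4.28 CPM with the empty vector, and Th, the rate-limiting enzyme of noradrenaline synthesis, was 0 to 0.130 and 0 to 0.388 CPM. Dbh, which makes noradrenaline from dopamine, averaged 0.182 CPM with Hand2 and 0.0561 CPM with the empty vector, in ranges of 0 to 0.422 and 0 to 0.140 CPM. Slc18a2, the vesicular monoamine transporter, averaged 0.371 CPM with Hand2 and 0.190 CPM with the empty vector. These 3 genes lay near the floor and were not tested.

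Between sexes 8 of the 66 genes passed (12.1%, against 5.63% of all genes), 6 higher and 2 lower in males. The lists were chosen with earlier results of these data known, so these shares are descriptive. In the cyclic AMP arm, Adcy6, an adenylyl cyclase, rose to 52.3 CPM in males and stood at 44.9 CPM in females (a difference of 0.23 ± 0.047 on the log2 scale, edgeR adjusted p = 0.00787). Prkacb, a catalytic subunit of protein kinase A, rose by 0.23 ± 0.061 (adjusted p = 0.0382), and Prkar2b, a regulatory subunit abundant in fat and brain, was 1.07 CPM in males and 1.95 CPM in females (-0.82 ± 0.22, adjusted p = 0.0338). The phosphodiesterases moved apart: Pde4a rose to 95.4 CPM in males, against 69.9 CPM in females (0.45 ± 0.079, adjusted p = 0.00256), and Pde7a fell to 55.5 CPM in males, against 78.5 CPM in females (-0.50 ± 0.088, adjusted p = 0.00251). In the phospholipase C arm, Prkcd, protein kinase C delta, rose to 17.9 CPM in males, against 11.4 CPM in females (0.65 ± 0.14, adjusted p = 0.0118), and Itpr1, an inositol trisphosphate receptor that releases calcium, rose to 72.2 CPM in males, against 47.7 CPM in females (0.61 ± 0.14, adjusted p = 0.0196). Gnb5, a G protein beta subunit, rose by 0.33 ± 0.064 (adjusted p = 0.00504). Of the lists without a call, Arrb1, an arrestin, was at 0.16 (adjusted p = 0.131) and Maob, a monoamine oxidase, at 0.17 (adjusted p = 0.207).

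Some of these calls did not hold in other methods or when animals were left out. Limma-voom with quality weights gave Prkar2b an adjusted p of 0.0699. Limma on the deposited log2 values gave 0.0538 for Prkar2b and 0.0577 for Prkacb. In edgeR the call of Prkacb was lost (adjusted p up to 0.0772) without any 1 of empty-vector replicates 1, 2, 3, 5, 6, 7, 8 and 9 or Hand2 replicates 2, 3, 4 and 6. The call of Prkar2b was lost (adjusted p up to 0.0656) without any 1 of empty-vector replicates 4, 5, 7, 8 and 9 or Hand2 replicates 4, 6 and 7. With age as a term the adjusted p was 0.0815 for Prkacb, 0.0705 for Prkar2b and 0.0538 for Itpr1. Without empty-vector replicates 3, 4 and 5 it was 0.0722, 0.0811 and 0.114 for these genes and 0.0814 for Adcy6.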

How the data were processed

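EDL RNA of 17 mice was sequenced (TruSeq v2 libraries, per the labels), and mm10 is the build per the submitters' processing notes. The authors deposited estimated counts per gene, unscaled, from a RefSeq re-alignment per the file headers, and normalized log2 values, of unstated scaling; no source used here names the aligner, the counter or the use of strand. Of the deposited rows 16061 were 0 in every sample, and 25.5% to 29.3% of values above 0 were whole within 0.001.

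The members and gene lists were chosen with earlier results of these data known. Estimated counts were rounded; genes passed edgeR's filterByExpr (minimum count 10, vector-by-sex groups), were scaled by TMM and went through the robust quasi-likelihood test of edgeR 4.0.16 under R 4.3.3, with Benjamini-Hochberg adjustment at 5% over 13965 genes. The model held vector and sex; within-sex contrasts came from 4 vector-by-sex groups. The SE is the size of the log2 fold change divided by the square root of F. Replicates are separate animals numbered in accession order. No pair of libraries agreed within sampling noise (lowest mean chi-square per gene 7.16). CPM are TMM-scaled; CPM per kilobase uses the summed exon length of GENCODE M21. Floors cover counting error only. Exons and antisense neighbours come from that annotation, with exon lengths from its transcripts that map to RefSeq. Gene coordinates and strands are those of the deposited table.

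Alternatives were DESeq2 1.42.0, limma-voom with quality weights and limma 3.58.1 on the deposited log2 values, other scalings and filters, an age term, each age or sex alone, and leaving out animals; reading the adipocyte and slow-fibre markers without animals was chosen after seeing the data. Named were all members, per pathway list up to 3 genes past the threshold or else the 1 with the lowest p, and for each member the 2 genes of highest Pearson r of log2 CPM (prior count 2; predicted genes and chromosome 18 left out). The marker genes, the immediate-early and the interferon-induced genes were chosen after values were seen. Simulated counts were used to test the procedure.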

Additional observations from a re-analysis of the deposited data

Results flagged for a closer look

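Among the 9 genes, 63 combinations of gene and group (by vector, by sex, and vector within sex) were searched for 1 animal far from the rest of its group, and 7 stood out; chance flags about 1 in 20. Adrb3 in empty-vector replicate 5, a female, was 1.49 CPM, against 0.558 CPM in the next animal of the empty-vector group and 0.632 CPM in the next female. Adra1a in Hand2 replicate 6, a male, was 1.44 CPM, against 0.882 CPM in the next Hand2 animal. Adra2a in empty-vector replicate 7 was 3.26 CPM, against 1.93 CPM in the next empty-vector male. Adra2b in empty-vector replicate 3 was 1.32 CPM, below the next value of 1.81 CPM in the empty-vector group and of 2.10 CPM in its females; that library also held the highest immediate-early sum. Adrbk1 in empty-vector replicate 6 was 121 CPM, against 113 CPM in the next empty-vector male.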

How the results depend on the processing

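No paired analysis was possible because the numbering of animals is arbitrary within each vector and links none across vectors. The call of Adrb3 between sexes and the absence of a call for the other members held in every alternative that tested the gene; a filter at a mean of 1 CPM dropped Adra1a, Adra1b and Adrb3. DESeq2 called 1 gene between vectors (Hand2), 1276 between sexes, 7 between vectors in females and 1 in males (Hand2), against 0, 786, 0 and 0 in edgeR. Without empty-vector replicates 3, 4 and 5 the count between sexes was 291. With 1 animal left out, counts ran from 0 to 1 between vectors (1, Hand2, without Hand2 replicate 6), from 476 to 952 between sexes (490 without empty-vector replicate 3, 476 without replicate 7, 516 without Hand2 replicate 6, 508 without replicate 7), from 0 to 1 in females and from 0 to 2 in males. Directions that turned belonged to values that no fit called, and the cause was not tested. Limma-voom gave 0.43 for Adrb3 in females, 0.093 for Adra1a between vectors, -0.018 for Adra1b in males and 0.012 for Adra2b between sexes, and limma on the deposited values 0.12 for Adrb3 in females and 0.058 for Adra1a between vectors. An age term gave 0.029 for Adra2b between sexes and -0.00027 for Adrbk1 between vectors, and animals of 23 months alone gave, between vectors, 0.18 for Adra1a, -0.0018 for Adra2b and -0.028 for Adrbk1. Without empty-vector replicates 3, 4 and 5 the values between vectors were 0.037 for Adra1b, -0.0079 for Adra2a and -0.014 for Adrbk1, those in females -0.37 for Adra1a and -0.0067 for Adrbk1, that of Adrbk1 between sexes -0.015, and the male minus female differences 0.19 for Adra1a and 0.21 for Grk5. With 1 animal left out, ranges that crossed 0 were, between vectors, -0.23 to 0.060 for Adra1a and -0.0020 to 0.025 for Adrbk1; in males, -0.67 to 0.098 for Adra1a, -0.31 to 0.39 for Adra1b, -0.18 to 0.17 for Adra2a and -0.049 to 0.0047 for Adrbk1; in females, -0.64 to 0.51 for Adrb3 and -0.15 to 0.21 for Adra1a; between sexes, -0.13 to 0.014 for Adra2b and -0.00091 to 0.027 for Adrbk1; and in the male minus female difference, -0.71 to 0.063 for Adra1a, -0.31 to 0.034 for Adra2b and -0.26 to 0.15 for Grk5. Low counts limit Adrb1, Adrb3, Adra1b and Adra1a most.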
